A study of Mus musculus with 12 samples.

Results

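Forkhead (Fox) genes outside the FOXO branch were examined in sorted mouse spermatogonia from control and cryptorchid testes. The genes were taken by symbol, as every gene named *Fox* with a letter from a to n or from p to s and a number. This gave 40 of the 21859 genes in the expression table, and the 4 FOXO genes (*Foxo1*, *Foxo3*, *Foxo4* and *Foxo6*) were left for comparison. In adult GFRa1-EGFP mice of 8 to 10 weeks, the left testis was fixed to the abdominal wall, the right testis of the same animal stayed in the scrotum as the control, and cells were taken at day 10. All libraries carry the EGFP allele, which marks cells that express *Gfra1*, the gene of a GDNF receptor subunit, and all cells were sorted as GFRa1+/KIT-, so they lacked the KIT receptor of differentiating spermatogonia. Testes were digested for 9 min at 32°C in the control group and at 37°C in the cryptorchid group, so that condition, digestion temperature and body side cannot be told apart. RNA of about 1000 cells was isolated, and the amount of about 200 cells was amplified by Smart-seq2, a full-length cDNA method without molecular identifiers. The 12 libraries comprise 5 control and 7 cryptorchid libraries. Which libraries share a mouse, and whether animals were pooled, is not stated, so *P*-values measure the spread between these libraries.

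Forkhead proteins share a winged-helix DNA-binding domain, and many of them bind variants of a single short motif. The branches differ in where they work. FoxA proteins open closed chromatin in endoderm, FoxC and FoxF proteins act in mesenchyme and vessels, FOXM1 drives genes of G2 and mitosis, FOXJ1 switches on motile cilia, FoxK proteins repress autophagy and bind the BAP1 complex, and FoxP proteins are repressors of brain, lung and lymphoid cells. In male germ cells, FOXO1 is needed for stem cell maintenance, *Foxc2* marks a slowly dividing subset of stem cells, and *Foxj3* is needed for spermatogenesis. Many of the developmental members are silent in most tissues and have CpG-rich promoters, which is where the repressive histone mark H3K27me3, the subject of the series, is usually found. The histone data were not used here.

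The 250 bases upstream of the start site of 3 members are shown, because they span the range of promoters in the family. The sequences are from RefSeq on GRCm38.p6, read 5′ to 3′ on the strand of the gene, with each CpG in capitals. Where a gene had several starts, the one with the most CpGs was taken. *Foxk2* (chr11:121259737-121259986, plus strand) had the most CpGs of the members with a promoter sequence, 48, and was read in every library. *Foxf2* (chr13:31625566-31625815, plus strand) had 21 CpGs and was without reads in all libraries but 1. *Foxi1* (chr11:34208090-34208339, minus strand) had 4 CpGs and was also read in 1 library.
Foxk2: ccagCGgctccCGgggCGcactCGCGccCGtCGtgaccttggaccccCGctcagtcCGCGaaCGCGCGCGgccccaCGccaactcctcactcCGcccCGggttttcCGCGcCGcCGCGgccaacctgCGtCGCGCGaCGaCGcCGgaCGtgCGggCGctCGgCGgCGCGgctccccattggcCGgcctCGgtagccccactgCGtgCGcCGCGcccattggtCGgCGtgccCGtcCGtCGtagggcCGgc
Foxf2: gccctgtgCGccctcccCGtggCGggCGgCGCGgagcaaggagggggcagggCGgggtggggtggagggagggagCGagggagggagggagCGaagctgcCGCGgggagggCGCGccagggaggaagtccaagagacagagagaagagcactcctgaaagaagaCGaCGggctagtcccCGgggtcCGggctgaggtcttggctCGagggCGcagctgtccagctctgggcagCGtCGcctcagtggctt
Foxi1: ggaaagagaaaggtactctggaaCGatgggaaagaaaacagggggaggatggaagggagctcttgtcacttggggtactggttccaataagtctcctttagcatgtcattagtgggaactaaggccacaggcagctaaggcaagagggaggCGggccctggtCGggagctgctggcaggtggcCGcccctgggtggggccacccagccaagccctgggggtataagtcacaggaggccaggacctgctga

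Between 4511730 and 24345368 reads fell on genes in the control libraries, and between 3306771 and 20027902 in the cryptorchid libraries. Values are given as log2 RPM, the logarithm of the reads scaled to a library's total. As 1 read was worth 0.0348 to 0.293 RPM, genes without reads had a different lowest value in each library, and all values were raised to a common floor of -1.92 log2 RPM, the highest of the 12 minima. Replicates 1 to 3 of both groups (batch 1) differed technically from replicates 4 and above (batch 2), as even read numbers made up 53.2% to 60.8% of the genes with 1 to 20 reads in batch 1 and 48.2% to 50.5% in batch 2. This split was found in the values, and the labels do not name it. All 10 markers of undifferentiated spermatogonia were read in all 12 libraries, and their sum was 1076 to 1661 RPM in control and 1254 to 1987 RPM in cryptorchid libraries. None of these markers passed an unadjusted *P* of 0.05 between the groups.

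Forkhead RNA in GFRa1+/KIT- spermatogonia was dominated by a few members, and *Foxp1* stood at the top. The control libraries averaged 8.97 ± 0.748 log2 RPM (SD, n=5) and the cryptorchid libraries 9.33 ± 0.548 (SD, n=7), from 2649 to 10601 reads a library. *Foxn3*, the next, stood at 7.05 ± 0.439 and 7.14 ± 0.430 log2 RPM, and *Foxj3* at 6.42 ± 0.377 and 6.65 ± 0.229. At the other end, *Foxe3*, a gene of lens development, had no read in any of the 12 libraries. Of the 40 members, 17 had reads in every library. The filter on low values (log2 of the mean RPM over the 12 libraries above -1) kept 22 members, as it kept 16932 of all 21859 genes. *Foxh1*, the SMAD partner in Nodal signalling, was just inside it at -0.94, and *Foxa3*, a liver gene, was outside it at -1.33. The filter used the deposited values, in which a gene without reads stands at 0.9 reads. With such libraries at 0, the mean of *Foxh1* was 0.46 RPM, which is under the filter.

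**Figure D1:**
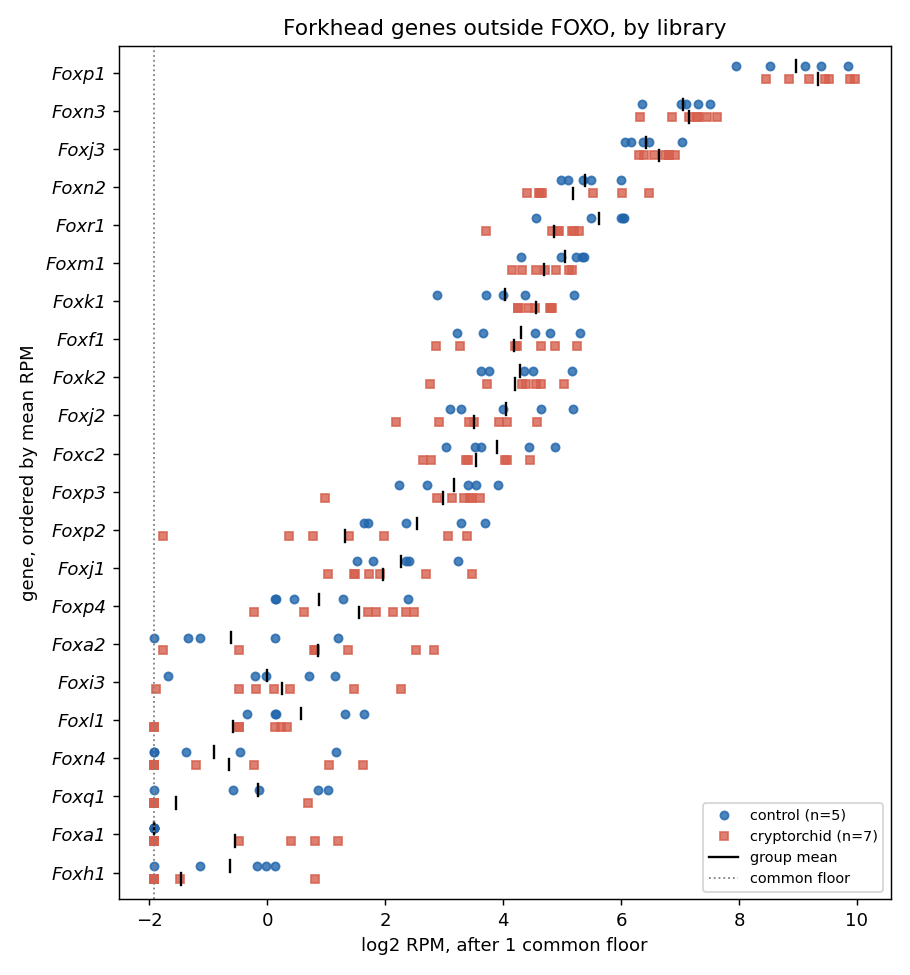
Level of the 22 forkhead genes that passed the filter on low values in each library, as log2 RPM after 1 common floor (x axis), with genes ordered by mean RPM (y axis), control libraries (n=5) as circles, cryptorchid libraries (n=7) as squares and group means as black ticks. The groups overlap for each gene, and the levels run from *Foxp1*, at 8.97 in control and 9.33 in cryptorchid libraries, down to genes at the floor of -1.92 in most libraries.

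Levels can be compared between genes only per length of transcript, so RPM was divided by the kilobases of exon in GENCODE. On this scale *Foxp1* again came first, with a mean of 45.8 RPM per kb over the 12 libraries (5.40 ± 0.635 as log2, n=12). *Foxr1*, whose exons span only 2.29 kb, moved to the second place with 17.4 RPM per kb (3.98 ± 0.676), ahead of *Foxn3* with 12.4 (3.58 ± 0.416). *Foxj3* at 8.72 (3.09 ± 0.307), *Foxf1* at 8.95 (2.97 ± 0.819), *Foxn2* at 5.78 (2.39 ± 0.657), *Foxm1* at 5.20 (2.32 ± 0.431) and *Foxc2* at 5.27 (2.24 ± 0.701) followed by mean log2 level. In this order, the steps from *Foxp1* to *Foxr1* and from *Foxn3* to *Foxj3* were larger than the SD of either gene over the libraries. The steps between the other neighbours named here, from *Foxr1* to *Foxn3* and from *Foxj3* to *Foxc2*, were within the SD of at least 1 of both genes. *Foxk2* (3.92 RPM per kb), *Foxk1* (2.86), *Foxj2* (2.89) and *Foxp3* (2.02) came next, also within such spreads.

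To ask whether cryptorchidism changed the family, the 7 cryptorchid libraries were compared with the 5 control libraries by limma over all 16932 genes, with Benjamini-Hochberg adjustment. Genes that passed an unadjusted *P* of 0.05 are called higher or lower below, and adjusted *P*-values are given for single genes. In this unpaired fit only *Foxr1* passed, and it was lower in cryptorchid spermatogonia. This is 1 of 22 members, or 4.55%, while 9.16% of all genes tested passed the same limit (5.26% higher and 3.9% lower). With 22 members, a count of 1 cannot tell the share of the family from that of all genes. The count ran from 0 to 3 with each library left out. The shares of all genes tested are also the background for the counts in the gene lists below. No member passed 2-fold together with an unadjusted *P* of 0.05, which 3.18% of all genes passed as higher and 2.45% as lower. None passed an adjusted *P* of 0.05 in limma, which 2 of all genes (0.0118%) passed, and the adjusted *P*-values of the members ran from 0.509 to 0.966. No member had groups that did not overlap, which 0.839% of all genes had (0.555% higher and 0.283% lower). Of the 22 members, 9 were higher and 13 lower in cryptorchid libraries by mean log2 RPM, with a median difference of -0.15, where the median over all genes tested was 0.09 and 56.0% were higher.

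**Figure D2:**
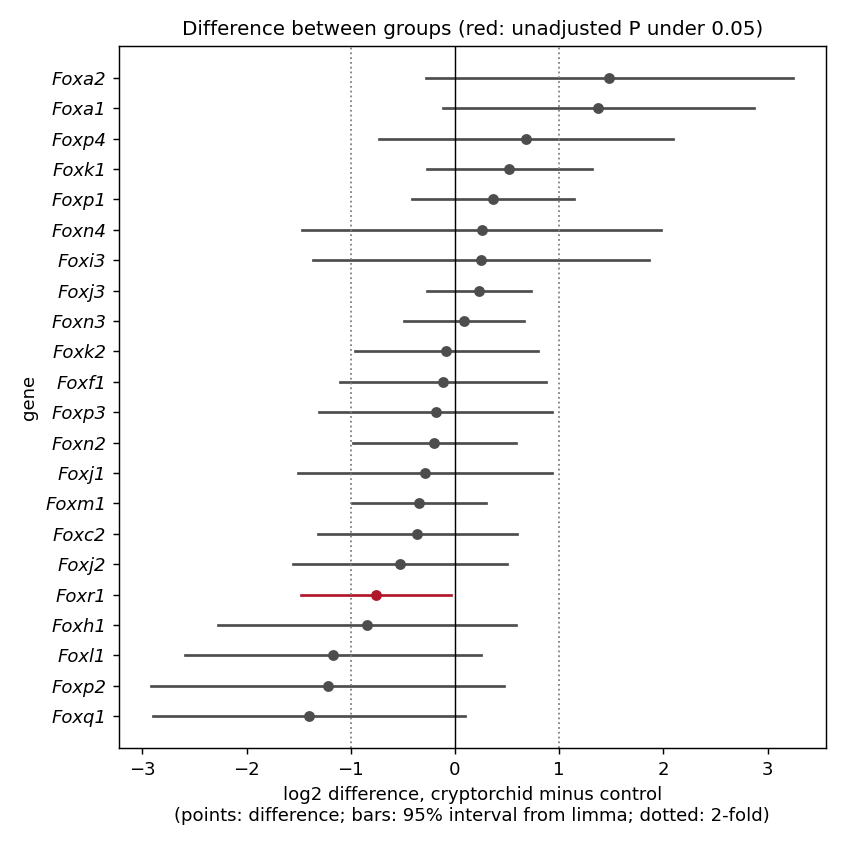
Difference in mean log2 RPM between cryptorchid (n=7) and control (n=5) libraries (x axis) for the 22 forkhead genes that passed the filter on low values (y axis), with points for the difference, bars for the 95% interval from limma and dotted lines at 2-fold. The interval of *Foxr1*, from -1.48 to -0.04, is the only one that leaves out 0.

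The intervals bound how far some of the members could have moved in this fit. For *Foxj3*, *Foxn3*, *Foxm1*, *Foxk2* and *Foxn2*, the 95% interval of the log2 difference lay within 2-fold on both sides. It ran from -0.27 to 0.73 for *Foxj3*, from -0.48 to 0.66 for *Foxn3* and from -0.99 to 0.30 for *Foxm1*. It ran from -0.96 to 0.80 for *Foxk2* and from -0.98 to 0.58 for *Foxn2*. A 2-fold change of these genes lay outside the interval, whereas smaller changes in either direction did not. For the other 17 members tested, a 2-fold change in at least 1 direction remained within the interval. The sign of the difference was the same in batch 1 and batch 2 for 17 of the 22 members.

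*Foxr1* encodes a little-studied forkhead protein that is known as a maternal-effect factor of fish eggs. The gene lies on chr9:44433773-44441136 on the minus strand of GRCm38. Its control libraries, in the order of replicates 1 to 5, were at 6.03, 6.0, 4.56, 6.04 and 5.48 log2 RPM. The lowest cryptorchid library was at 3.71, the median at 4.94 and the highest at 5.28. Of the 5 control libraries, 4, all but replicate 3, thus lay above every cryptorchid library, and the groups overlapped through that library. The means were 5.62 ± 0.638 and 4.86 ± 0.535, a log2 difference of -0.76 (SE 0.342) or 1.69-fold lower, from 110 to 1847 reads a library. The two-sided *P*-value was 0.0391 in limma (adjusted *P*=0.509) and 0.0429 in an exact permutation test over the 792 assignments of the group labels. The exact test used the same values, exchanged labels across both batches, and was run only because *Foxr1* had passed in limma. It is therefore not separate evidence. The difference was -0.88 within batch 1 and -0.74 within batch 2, and the cryptorchid library was the lower one in 5 of 5 same-numbered pairs. The *P*-value did not stay below 0.05 without control replicate 1, 2, 4 or 5, or without cryptorchid replicate 3, 4 or 7. Over the 12 fits that each left out 1 library, *P* ran from 0.00492 (without control replicate 3) to 0.0993 (without control replicate 4), and the log2 difference from -1.03 to -0.57.

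Spermatid markers moved in the same direction as *Foxr1*. All 7 of them were lower in the cryptorchid libraries by mean log2 RPM and 3 fell at an unadjusted *P* under 0.05, namely the protamine genes *Prm1* (log2 difference -2.40) and *Prm2* (-3.73) and the sperm tail gene *Odf1* (-2.70). Their summed level was 489.8 to 2666 RPM in control and 14.5 to 1789 RPM in cryptorchid libraries, and no marker of the list was at 0 in 6 or more libraries. The part of spermatid RNA in the difference of *Foxr1* was not tested. Fewer cells that make a transcript and less RNA per cell cannot be told apart in such bulk samples.

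**Figure D3:**
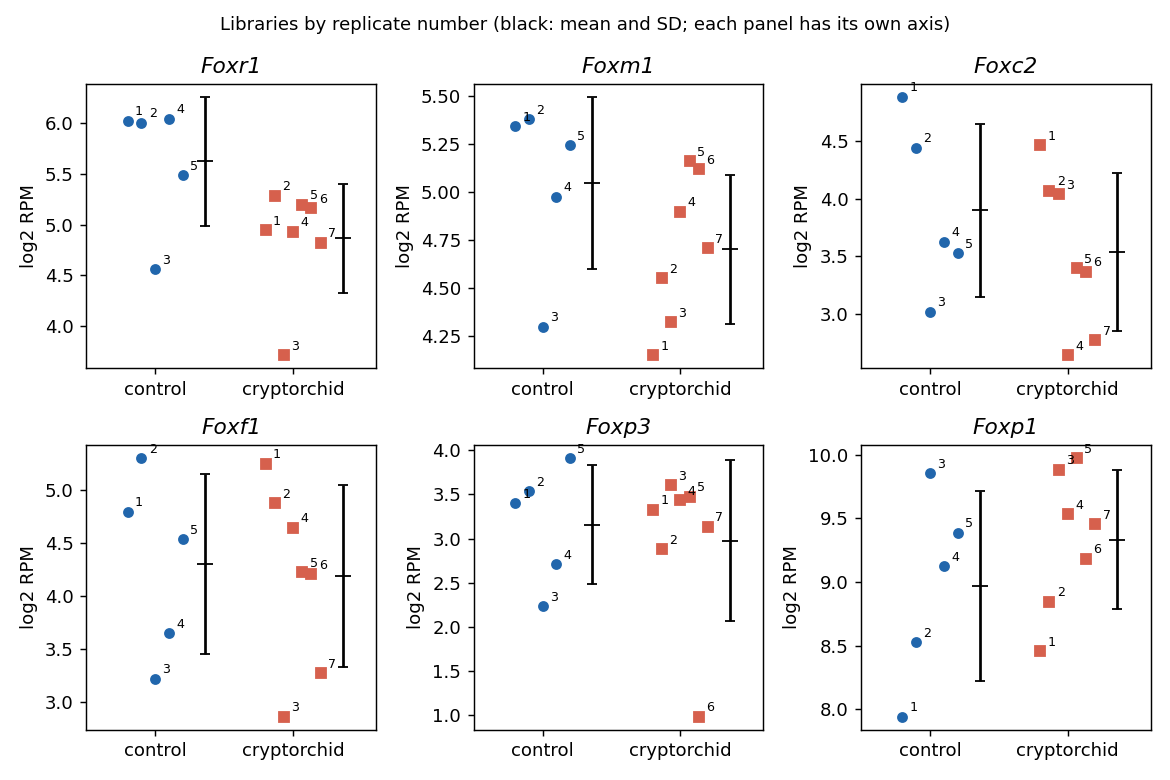
Level of 6 forkhead genes as log2 RPM (y axis, a separate scale in each panel) in control (circles, n=5) and cryptorchid libraries (squares, n=7), each marked with its replicate number, with black bars for mean and SD. *Foxr1* shows 4 of 5 control libraries above all cryptorchid libraries, and the groups of the other 5 genes lie over each other.

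*Foxm1*, the G2/M regulator, was at 5.34, 5.38, 4.30, 4.98 and 5.24 log2 RPM in control replicates 1 to 5. The cryptorchid libraries ran from 4.15 over a median of 4.71 to 5.16. The groups overlapped, and the log2 difference was -0.35 (adjusted *P*=0.771 in limma), with -0.67 in batch 1 and -0.14 in batch 2. Among 22 genes of G2 and mitosis that FOXM1 is known to drive, 2 were lower and 0 higher at an unadjusted *P* under 0.05, and 15 of the 22 had a negative difference (median -0.19). Over all genes tested, 3.9% were lower and 5.26% higher at this limit, and 56.0% had a positive difference. The 2 lower genes of the list were the mitotic kinases *Aurkb* (5.73 to 4.55 log2 RPM, a difference of -1.19) and *Plk1* (4.93 to 4.11, a difference of -0.82), with adjusted *P*-values of 0.242 and 0.503. *Plk1* lost the call without control replicate 1, 2, 4 or 5 or cryptorchid replicate 3 or 4 (*P* of 0.0517 to 0.138). Other genes of the list, such as *Ccnb1* (7.83 and 7.66 log2 RPM), did not pass. The summed level of the list was 1345 to 3222 RPM in control and 1598 to 2785 RPM in cryptorchid libraries, which overlap almost fully.

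In the FoxP branch, *Foxp1* was at 7.94, 8.53, 9.86, 9.13 and 9.39 log2 RPM in control replicates 1 to 5. The cryptorchid libraries ran from 8.45 over 9.46 to 9.97. The lowest and the highest control library spanned nearly the whole cryptorchid range, and the difference of 0.37 (95% interval -0.41 to 1.14, adjusted *P*=0.809 in limma) was within this spread. Between libraries of the same number, cryptorchid was the higher one in 5 of 5 pairs, by 0.03 to 0.59. With the replicate number as a block, which the labels do not establish as a pairing, the difference was 0.37 with an unadjusted *P* of 0.0101 in limma. In that setting 3750 of all 16932 genes tested passed an unadjusted *P* of 0.05, against 1551 in the unpaired fit. *Foxp4*, which acts with *Foxp1* and *Foxp2* in lung and gut, was at 0.88 ± 0.965 log2 RPM in control and 1.56 ± 0.999 in cryptorchid libraries. *Foxp2*, the member known for speech and motor circuits, was at 2.54 ± 0.925 and 1.31 ± 1.76, with a cryptorchid range of -1.77 to 3.39, and its difference of -1.22 did not pass (adjusted *P*=0.686). None of 10 partner genes of FoxP proteins, among them the NuRD subunits *Chd4* (8.78 and 8.79 log2 RPM) and *Mta2* (6.61 and 6.09), passed an unadjusted *P* of 0.05 in limma (median difference -0.03). Their sum was 866.6 to 1350 RPM in control and 838.0 to 1400 RPM in cryptorchid libraries.

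*Foxp3*, the master regulator of regulatory T cells, was read in all 12 libraries of these sorted germ cells, with 9 to 334 reads. Its level was 3.16 ± 0.676 log2 RPM in control and 2.98 ± 0.911 in cryptorchid libraries (difference -0.18, adjusted *P*=0.939), at control values of 3.40, 3.54, 2.23, 2.71 and 3.91. Of 11 T cell markers, 6 were at 0 in 6 or more libraries, namely *Cd3e*, *Cd3g*, *Cd4*, *Cd8a* and the regulatory T cell genes *Il2ra* and *Tnfrsf18*. In contrast, *Cd3d* was read in 10 of the 12 libraries, and *Ctla4* and *Ikzf2*, also regulatory T cell genes, in 11 and 12. The T cell list summed to 19.1 to 34.7 RPM in control and 27.8 to 93.1 RPM in cryptorchid libraries. Within the list, *Lck* (log2 difference 1.43, adjusted *P*=0.378) and *Cd2* (2.03, adjusted *P*=0.222, no overlap between groups) rose at an unadjusted *P* under 0.05, and these were 2 of the 7 genes of the list that passed the filter. Of these 7, *Il2ra* passed only because libraries without reads stood at 0.9 reads (mean of 0.409 RPM with them at 0). Whether *Foxp3* differed from *Lck* and *Cd2* was not tested. The exons of *Foxp3* (chrX:7573644-7595245, plus strand) overlap those of *Ccdc22* on the other strand over 12.9% of their length and those of *Ppp1r3f* over 5.81%. They also overlap the noncoding genes *Flicr*, on the same strand, over 18.6% and *Gm36995*, on the other strand, over 8.15%. As the counting strand is not stated, reads of the genes on the other strand could not be told apart there. Reads of *Flicr*, on the same strand, could not be told apart by strand in any case. The level of *Foxp3* is thus uncertain.

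The FoxC and FoxF genes are factors of mesoderm and vessels, and *Foxc2* has a known place in spermatogonial stem cells. *Foxc2* was at 4.88, 4.44, 3.02, 3.63 and 3.53 log2 RPM in control replicates 1 to 5, and from 2.65 over 3.40 to 4.46 in the cryptorchid libraries. The groups overlapped over most of their range, and the difference of -0.36 (95% interval -1.32 to 0.59, adjusted *P*=0.852) had a different sign in batch 1 (0.07) and batch 2 (-0.53). *Foxc1* was named by the study among developmental genes that it chose on these samples, and here its reads were few. The control replicates 1 to 5 had 0, 4, 0, 0 and 0 reads, and the cryptorchid replicates 1 to 7 had 19, 7, 0, 2, 3, 0 and 2. On the scale of RPM, 5 of the 7 cryptorchid and 0 of the 5 control libraries lay above the common floor, with the highest at -0.19 in cryptorchid replicate 5 and -0.23 in replicate 1. The groups differed by 0.87 in mean log2 RPM, with 0.98 for batch 1 and 0.79 for batch 2, a size that depends on the floor. *Foxc1* did not pass the filter, so it has no test here. *Foxf1* was at 4.80, 5.31, 3.22, 3.65 and 4.54 log2 RPM in control replicates 1 to 5 and from 2.86 over 4.23 to 5.25 in the cryptorchid libraries, a difference of -0.11 (adjusted *P*=0.960). Its neighbour in kind, *Foxf2*, had 5 reads, all in cryptorchid replicate 6.

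Since FoxC and FoxF genes are also expressed in testicular stroma, markers of those cells were summed. Endothelial markers gave 24.6 to 43.4 RPM in control and 30.0 to 61.5 RPM in cryptorchid libraries, and 1 of 6, *Cdh5*, rose at an unadjusted *P* under 0.05 (log2 difference 2.01, adjusted *P*=0.344). Peritubular myoid markers gave 5.46 to 18.0 and 13.7 to 27.1 RPM, and 1 of 5 that passed the filter, *Pdgfra*, rose (1.43, adjusted *P*=0.402). Sertoli cell markers gave 46.5 to 292.3 and 42.7 to 258.9 RPM, with 0 of 10 passing. Leydig cell markers gave 8.64 to 15.5 and 6.18 to 47.8 RPM, with *Cyp11a1*, *Hsd3b1*, *Cyp17a1* and *Lhcgr* at 0 in 6 or more libraries and 0 of the 3 that passed the filter changed. Macrophage markers gave 2.25 to 23.5 and 7.02 to 27.5 RPM, with *C1qa* and *C1qb* at 0 in as many and 0 of 5 changed. Among germ cell lists, 0 of 7 spermatocyte markers passed, while of 6 genes of differentiating spermatogonia *Stra8* rose (1.09, adjusted *P*=0.261) and *Dnmt3b* fell (-1.20, adjusted *P*=0.199). The part of these cells, or of T cells, in the levels of the forkhead genes was not tested.

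Several of these genes lie in clusters. *Foxf1*, *Foxc2* and *Foxl1* follow each other on the plus strand of chromosome 8, within 46.3 kb (chr8:121084386-121088144, chr8:121116171-121118895 and chr8:121127940-121130644). Their levels in control libraries were 4.30, 3.90 and 0.58 log2 RPM, and 4.19, 3.54 and -0.59 in cryptorchid libraries. All 3 differences were thus negative, and none passed the test. *Foxl1*, a factor of gut mesenchyme, had between 5 and 90 reads in control and between 1 and 28 in cryptorchid libraries (difference -1.17, adjusted *P*=0.630). The cluster of *Foxq1*, *Foxf2* and *Foxc1* on chromosome 13 spans 256.3 kb (chr13:31556134-31560976, chr13:31625816-31631403 and chr13:31806633-31812476). *Foxf2* and *Foxc1* of this cluster had the few reads given above. *Foxq1*, known from hair formation, had 44, 59, 0, 5 and 3 reads in control replicates 1 to 5 and 36, 0, 1, 1, 0, 0 and 0 in cryptorchid replicates 1 to 7 (difference -1.40, adjusted *P*=0.581). It shares 66.1% of its exon bases with *A530084C06Rik* on the other strand, so its reads are uncertain.

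The FoxJ, FoxK and FoxN branches held most of the other transcribed members. *Foxj3* was at 7.03, 6.37, 6.06, 6.16 and 6.47 log2 RPM in control replicates 1 to 5 and from 6.31 over 6.74 to 6.91 in cryptorchid libraries (difference 0.23, adjusted *P*=0.812). The SD of its cryptorchid libraries was 0.229. *Foxj2* was at 4.63, 3.09, 5.19, 4.0 and 3.28 and from 2.18 over 3.51 to 4.57 (difference -0.53, adjusted *P*=0.783). *Foxj1*, the cilia factor, was lower still, at 2.26 ± 0.659 and 1.97 ± 0.834 log2 RPM. Of 22 motile cilia genes, all of which passed the filter, 1 rose and 0 fell, and that was the dynein *Dnah5* (2.96 to 4.36 log2 RPM, a difference of 1.40, adjusted *P*=0.435), a call that was lost without control replicate 1 (0.99, *P* of 0.0774). Their median difference was 0.15, and their sum was 662.3 to 1230 RPM in control and 777.2 to 1413 RPM in cryptorchid libraries. Of all genes tested, 5.26% rose and 3.9% fell at an unadjusted *P* under 0.05 in limma.

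*Foxk1* was at 2.89, 4.01, 5.20, 4.37 and 3.71 log2 RPM in control replicates 1 to 5, a wide spread, and from 4.25 over 4.54 to 4.83 in the cryptorchid libraries, all of which lay inside the control range (difference 0.52, adjusted *P*=0.717). *Foxk2* was at 3.76, 4.36, 3.63, 4.51 and 5.17 and from 2.76 over 4.39 to 5.03 (difference -0.08, adjusted *P*=0.966). Both FoxK genes, which feed into metabolism and autophagy, were thus read in each library at comparable levels. Of 10 genes of the BAP1 and SIN3 complexes that FoxK proteins bind, 1 rose and 0 fell, *Mbd5* (7.09 to 7.87 log2 RPM, a difference of 0.78, adjusted *P*=0.436), with a median difference of -0.06. *Mbd5* lost the call with median centring (difference 0.71, *P* of 0.0569) and without control replicate 1 (0.0642) or 2 (0.0589). The sum of the list was 1297 to 1993 RPM in control and 1398 to 2356 RPM in cryptorchid libraries. At the same limit, 5.26% of all genes tested rose and 3.9% fell.

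*Foxn3*, known as a checkpoint suppressor, was at 6.35, 7.01, 7.51, 7.10 and 7.30 log2 RPM in control replicates 1 to 5 and from 6.33 over 7.28 to 7.62 in cryptorchid libraries (difference 0.09, adjusted *P*=0.943). The related *Foxn2* was at 4.98, 5.49, 5.99, 5.10 and 5.36 and from 4.40 over 4.66 to 6.48 (difference -0.20, adjusted *P*=0.905). For *Foxn2*, 4 of the 7 cryptorchid libraries lay below every control library and 2 lay above all of them, and the SD was 0.818 in cryptorchid and 0.394 in control libraries. *Foxn4*, a factor of retina and spinal cord, had 0 to 46 reads, and *Foxn1*, which builds the thymus, had 0 to 9 and did not pass the filter.

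In the FoxA branch, *Foxa2* and *Foxa1* gave the largest positive differences of the 22 members tested, on few reads. *Foxa3*, outside the filter, went the other way (-0.35), with 37 reads over all control and 17 over all cryptorchid libraries. *Foxa2*, the pioneer factor of endoderm, had 56, 13, 4, 6 and 0 reads in control replicates 1 to 5 and 158, 64, 6, 8, 1, 8 and 12 in cryptorchid replicates 1 to 7 (log2 difference 1.48, adjusted *P*=0.623). *Foxa1* had 4, 6, 0, 0 and 0 reads in control and 51, 8, 0, 0, 6, 6 and 0 in cryptorchid libraries (1.37, adjusted *P*=0.586). As all 5 control libraries of *Foxa1* lay at the common floor, the size of this difference depends on the floor. *Foxa1*, *Foxa2*, *Foxq1*, *Foxp2* and *Foxl1* were the 5 of 22 members that differed by 2-fold or more whatever the *P*-value, as did 13.9% of all genes tested, and none of the 5 passed an unadjusted *P* of 0.05 in limma. For *Foxa1* and *Foxa2*, cryptorchid replicate 1, the deepest library of its group, held the most reads. *Foxa1* passed the filter only through the cryptorchid libraries, with a mean of 0.868 RPM there and 0.0746 in control libraries. *Foxq1* (1.09 RPM in control and 0.279 in cryptorchid libraries) and *Foxh1* (0.682 and 0.302) passed it only through the control libraries.

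*Foxh1* had 0, 13, 10, 6 and 4 reads in control replicates 1 to 5 and 0, 0, 3, 0, 6, 0 and 0 in cryptorchid replicates 1 to 7 (difference -0.84, adjusted *P*=0.750). In its pathway, 10 of 14 Nodal genes passed the filter, and *Lefty2* (difference -1.84, adjusted *P*=0.380) and *Gdf1* (-1.88, adjusted *P*=0.425), an inhibitor and a ligand, fell at an unadjusted *P* under 0.05 while 0 rose. With libraries without reads at 0, *Gdf1* averaged 1.88 RPM in control and 0.434 in cryptorchid libraries, the latter under the filter. *Lefty2* passed the filter only through the control libraries and lost the call with the values as deposited (*P* of 0.0767) and with voom (0.215), and *Gdf1* lost it without control replicate 4 (0.0591). The reads behind these were few, with 87 over all control and 4 over all cryptorchid libraries for *Lefty2* and 125 and 25 for *Gdf1*. *Nodal* itself, *Lefty1*, *Tdgf1* and *Gdf3* were at 0 in 6 or more libraries. The median difference of the 10 genes was 0.10, and the summed level of all 14 was 293.4 to 385.5 RPM in control and 315.0 to 456.0 RPM in cryptorchid libraries. Beside these, 3.9% of all genes tested fell and 5.26% rose at an unadjusted *P* under 0.05 in limma. *Foxi3*, a factor of teeth and hair, was read in each library with 3 to 22 reads, at -0.01 ± 1.08 log2 RPM in control and 0.24 ± 1.35 in cryptorchid libraries.

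The 18 members that did not pass the filter had at most 22 reads in a library, a number reached by *Foxa3* in control replicate 2, the deepest library. *Foxb1*, *Foxd2*, *Foxl2*, *Foxr2* and *Foxe3*, factors that include the ovarian *Foxl2*, had at most 2 reads in any library. The limit of 3 reads that a count of 0 allows corresponds to -3.26 to -0.19 log2 RPM in these libraries, so that lower levels were not detectable, and this limit covers counting error only. *Foxd3*, a factor of neural crest and pluripotent cells, had 18 reads in cryptorchid replicate 1 and at most 2 in any other library. *Foxs1*, a pericyte gene, had 12 reads in the same library and at most 4 elsewhere. Further genes, *Foxb2*, *Foxd1*, *Foxd4*, *Foxe1*, *Foxf2*, *Foxi1*, *Foxi2* and *Foxn1*, had at most 9 reads in any library.

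Many promoters of the family were rich in CpGs, also where little or no RNA was found. A RefSeq promoter was matched to 26 of the 40 members. For each gene with several RefSeq starts, the one with the most CpGs was kept, which raises the counts of such genes. The 12 of them that passed the filter had a median of 22.5 CpGs in 250 bases, and 10 of the 12 had 10 or more. The 14 that did not pass had a median of 12, and 8 of the 14 had 10 or more. Over all genes with a promoter, the median was 15 in the genes that passed and 2 in those that did not. Of these, 67.5% of the former and 8.81% of the latter had 10 or more CpGs. The *Foxf2* promoter printed above, with 21 CpGs and 5 reads in all, is an example of a CpG-rich promoter with few reads, as are *Foxc1* with 29 CpGs and *Foxl2* with 22. In contrast, *Foxn3* had 5 CpGs upstream of its RefSeq start although it was the second of the members by RPM. The forkhead motif TGTTTAC, searched on both strands, was found in 1 of the 26 promoters, that of *Foxa1*, and in 2.6% of the promoters of all genes.

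**Figure D4:**
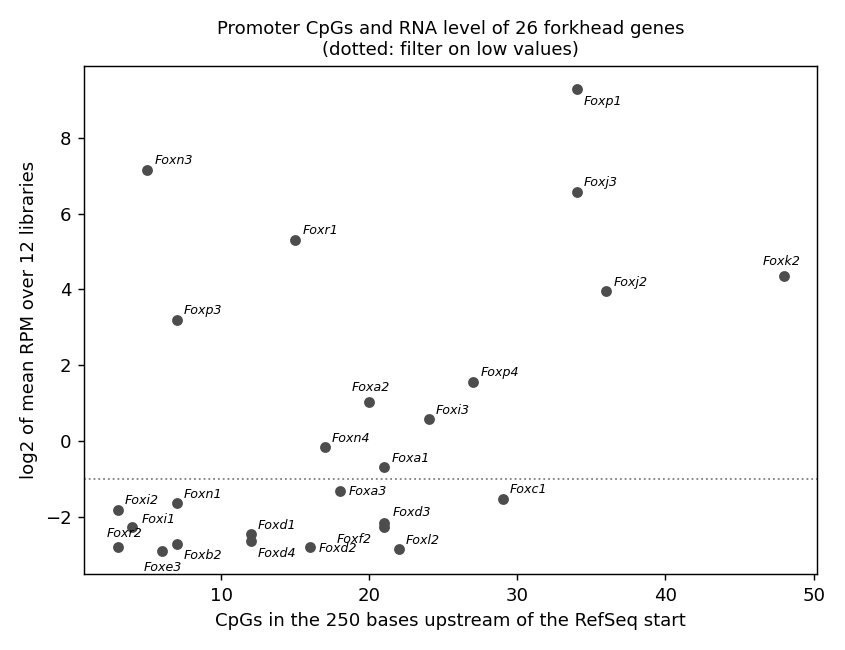
Number of CpGs in the 250 bases upstream of the RefSeq start (x axis) and log2 of the mean RPM over the 12 libraries (y axis) for the 26 forkhead genes with a RefSeq promoter, each point 1 gene, with the dotted line at the filter on low values. For a gene with several starts, the start with the most CpGs is shown. Genes under the line spread from 3 CpGs (*Foxi2* and *Foxr2*) to 29 (*Foxc1*), and the genes above it from 5 (*Foxn3*) to 48 (*Foxk2*).

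For comparison, the FOXO genes, which take up insulin and PI3K signals, were tested in the same fit, and 0 of 4 passed an unadjusted *P* of 0.05 in limma (median difference 0.30). *Foxo1* was at 7.58 ± 0.387 log2 RPM in control and 7.76 ± 0.328 in cryptorchid libraries (difference 0.18). *Foxo3* was at 7.30 ± 0.889 and 7.71 ± 0.710 (0.42), *Foxo4* at 2.13 ± 1.29 and 2.68 ± 1.22 (0.55), and *Foxo6* at 2.58 ± 0.653 and 2.06 ± 1.21 (-0.52). Per kilobase of exon, *Foxo3* (27.5 RPM per kb) and *Foxo1* (24.4) lay between *Foxp1* and *Foxr1*. Their summed level was 188.7 to 485.7 RPM in control and 242.0 to 647.2 RPM in cryptorchid libraries.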

How the data were processed

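RNA-seq values of 12 libraries were used as deposited. The authors trimmed reads with Trim Galore (version 0.6.6, with FastQC 0.11.8), mapped them to mm10 with HISAT2 (2.1.0), quantified protein-coding genes in SeqMonk, and deposited unpooled log2 RPM values of 21859 genes. Datasets with excessive duplicates were excluded by them. Duplicate removal, counting strand and the mice behind the libraries are not given in the sources used here. Tool versions are from the submitters' processing notes. No column belonged to another sample (0 columns).

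Reads were recovered from the steps between low values, with the lowest value as 0.9 reads, and 100% of values under 1000 reads were whole within 0.02. The 31 pairs of replicates each differed by more than sampling noise (13.5 to 264 times), and each library was taken as 1 sample. Reads are not independent molecules, and read limits cover counting error only.

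Values were raised to 1 common floor, and 16932 genes whose mean RPM was above -1 on the log2 scale were fitted with limma 3.58.1 in R 4.3.3 (lmFit, eBayes with trend, two-sided *P*, Benjamini-Hochberg over all genes tested). Fold changes are on the scale of log2 RPM with that floor and understate changes of low genes. The study itself used edgeR on counts, and as the deposited values are on a log2 scale, a count test was not used. On simulated data (16718 genes, of which 200 had a log2 change of 3), 92.5% of the changed genes were recovered, 4.64% of the calls were false and 4.63% of unchanged genes had *P* under 0.05. The changed genes were drawn only from genes well above the filter, and no batch was simulated. The recovery rate thus does not cover smaller changes or genes at low levels.

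Values of 1 member that did not pass the filter are not reported here. The members, lists and tests were chosen with earlier results of these data known. Values of each control library and the lowest, median and highest cryptorchid value (for genes near the floor, the reads of each library) are given for members with *P* under 0.05, the 10 with the highest mean RPM, *Foxc1*, *Foxc2* and *Foxm1*. Values given for other genes, and the examples from lists, were chosen after their values were seen. Alternatives were the values as deposited, log2(RPM + 1) and log2(RPM + 0.1), median centring, quantile normalization, no filter and a filter at 1 in place of -1, limma's array weights, voom on recovered reads, a batch term, a replicate block, each library left out, and, added after the data were seen, each batch alone. Positions and exon lengths are from GENCODE vM21 on GRCm38, and promoters from RefSeq on GRCm38.p6. Of several RefSeq starts of a gene, the one with the most CpGs was kept. The exact permutation test for *Foxr1* was added after the data were seen. Software was Python 3.11.15, with matplotlib 3.10.9 for plots, pandas 2.3.3 and numpy 2.4.6.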

Additional observations from a re-analysis of the deposited data

Results flagged for a closer look

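Over the 22 forkhead genes that passed the filter, the highest and the lowest library of each group were compared with the others by Dixon's criterion, in 44 groups. In 4 groups a library stood apart. Chance gives about 1 in 20 groups for normally distributed values. This rate does not hold where libraries lie at the common floor, as in the groups of *Foxq1* and *Foxh1* below. *Foxr1* in cryptorchid replicate 3 was at 3.71 log2 RPM (110 reads), below 4.82 to 5.28 in the other 6 libraries, and without this library the difference of *Foxr1* was -0.57 with an unadjusted *P* of 0.0777 in limma. *Foxp3* in cryptorchid replicate 6 was at 0.98 log2 RPM (9 reads), below 2.88 to 3.60 in the others, and without it the difference of *Foxp3* was 0.15 in place of -0.18. *Foxq1* in cryptorchid replicate 1 was at 0.69 log2 RPM (36 reads), while all others lay at the floor of -1.92. *Foxh1* in cryptorchid replicate 5 was at 0.81 log2 RPM (6 reads), above -1.92 to -1.49 in the others.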

How the results depend on the processing

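Of 692 values of 28 single genes under 25 alternative settings, 619 kept their direction and their side of an unadjusted *P* of 0.05, 30 lost the call, 17 gained it and 26 turned the direction, and the cause was not tested. The forkhead genes with *P* under 0.05, 1 as reported, were 2 with quantile normalization (*Foxr1* and *Foxq1*, beside 1694 of all genes), 5 of all 40 members without a filter (*Foxr1*, *Foxq1*, *Foxa1*, *Foxl1* and *Foxc1*, beside 1759 of all 21859 genes), 4 with array weights (*Foxr1*, *Foxq1*, *Foxk1* and *Foxl1*), 0 in batch 1 alone, 2 in batch 2 alone (*Foxr1* and *Foxq1*) and 0 to 3 with each library left out. The genes of the companion lists, 6 as reported, were 12 with array weights, 0 in batch 1 alone, 19 in batch 2 alone and 3 to 11 with each library left out. Among the forkhead genes, 0 were called without control replicate 2, 4 or 5, 3 without control replicate 3, and 2 without cryptorchid replicate 1 or 5. *Foxa1* gained the call without cryptorchid replicate 3, 4 or 7, *Foxa2* without control replicate 1 or cryptorchid replicate 5, *Foxq1* without control replicate 3 or cryptorchid replicate 1, and *Foxk1* without control replicate 3. Of the 6 companion genes, *Lefty2* lost the call with the values as deposited and with voom, *Mbd5* with median centring and *Gdf1* under the block. In batch 1 alone all 6 lost it. Among the companion genes, 3 were called without control replicate 1 and 11 without control replicate 3 or cryptorchid replicate 1. Over all genes tested, 1551 as reported became 3260 with array weights, 623 in batch 1 alone and 3007 in batch 2 alone, and 1212 to 2145 with each library left out.

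The replicate number as a block, pairing same-numbered libraries, gave 2 forkhead genes (*Foxp1* at 0.0101 and *Foxr1* at 0.00236 by unadjusted *P*). It gave 18 companion genes and 3750 of all 16932 genes tested. Same-numbered deviations correlated at 0.0372 to 0.474 over 5 pairs, with 1 pair under 0.1, and 4 of 5 controls correlated best with their own number. Libraries of different numbers correlated at -0.322 to 0.313. A resemblance of same-numbered libraries was thus clear only in batch 1, at 0.433 to 0.474. Control replicate 4 correlated at 0.255 with its own number and at 0.254 with cryptorchid replicate 7. Control replicate 5 correlated at 0.0372 with its own number and at 0.297 with cryptorchid replicate 7. As the labels do not state a pairing, the number was used only in this alternative setting. Under the block, *Foxn2* was at 0.0697, *Foxf1* at 0.0713, *Foxp3* at 0.184 and *Foxi3* at -0.40.

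Other reversals were all of differences that did not pass. *Foxn4* was at -0.10 with log2(RPM + 0.1) and *Foxi3* at -0.0168 with a batch term. In batch 1 alone *Foxn3* was at -0.0300, *Foxn2* at 0.0468, *Foxc2* at 0.0740, *Foxp3* at 0.212 and *Foxi3* at -0.0220, and in batch 2 alone *Foxi3* was at -0.0109 and *Foxn4* at -0.13. With each library left out, the range was -0.0862 to 0.23 for *Foxn3*, -0.38 to 0.14 for *Foxf1*, -0.16 to 0.61 for *Foxi3*, -0.25 to 0.16 for *Foxk2*, -0.41 to 0.15 for *Foxp3* and -0.12 to 0.78 for *Foxn4*. *Foxr1* was lower under each setting. Of 2-fold calls at *P* under 0.05 over all genes, 56.5% were higher as reported, 46.5% with median centring (463 higher, 532 lower) and 45.3% with quantile normalization (451 and 545).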
